A study of Mus musculus with 6 samples.

Results

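The renin-angiotensin-aldosterone system was followed in mouse hearts through 7 genes: Agt, Ace, Agtr1a, Agtr2, Nr3c1, Nr3c2 and Hsd11b1. They were taken as all probe sets of the array whose only annotated gene symbol is one of these names, which gave 13 of 45101 probe sets and 7 of 18193 genes. Expression was measured in RNA from the apex of 6 hearts, 1 Affymetrix array per heart, from male mice 6 to 7 weeks old. In 3 hearts (alpha MHC Cre) a transgene driven by the promoter of the α-myosin heavy chain gene makes Cre recombinase in cardiomyocytes, which can remove the floxed segment of Fog2. The other 3 hearts (no Cre) lack the transgene. Both groups share the genotype Fog2flox/delta, so the hearts without Cre already carry 1 deleted allele and are not wild type, and no heart carried Cre without a floxed allele. Fog2, official symbol Zfpm2, encodes a cofactor of GATA transcription factors. The question is how transcript levels change when Cre is present, and an effect of Cre itself cannot be told apart from one of the deletion.

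In this system the protease renin cuts angiotensinogen, the product of Agt, to angiotensin I, and angiotensin-converting enzyme (Ace) trims that to angiotensin II, which raises blood pressure and promotes cardiac growth and fibrosis through the type 1 receptor (Agtr1a). The adrenal hormone aldosterone acts through the mineralocorticoid receptor (Nr3c2), which also binds glucocorticoids, while the glucocorticoid receptor (Nr3c1) is a related nuclear receptor. The enzyme encoded by Hsd11b1 turns an inactive glucocorticoid back into its active form inside cells.

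Of the 7 genes, Ace alone had a probe set that changed, and it rose 1.90-fold. The other probe set of Ace and all those of the other genes did not pass the test. Hsd11b1 was the gene with the largest drop among members bright enough to test, at -0.44 on the log2 scale, and it failed the correction. Outside the 7 genes, the larger changes among angiotensin-cutting enzymes were a 3.10-fold rise of Enpep and a fall of Mme. The mean of Mme with Cre lay just below the limit for dim probe sets.

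Values are log2 signals of probe sets (sets of short oligonucleotides against 1 or more transcripts), and each difference is alpha MHC Cre minus no Cre. Differences were tested with limma over the 27022 probe sets left after the dimmest 40% had been set aside, with p-values adjusted by Benjamini-Hochberg and a threshold of 0.05. Of the 13 member probe sets 11 were bright enough to be tested, and they cover 6 of the 7 genes. One of these 11 passed, upward, against 5.23% of all tested probe sets in either direction and 3.43% in the upward direction. None fell, against 1.79% of all. Counted as genes through the brightest probe set of each, 0 of 6 passed with limma, against 6.24% of 13062 genes, and 1 of 6 had an unadjusted p under 0.05. In 1 of the 11 every heart of a group lay beyond every heart of the other, against 23.5% of all tested probe sets. The median difference over the 11 was -0.15, and -0.02 over all tested probe sets. A count of 1 among 11 is near the background, and for the overlap below it.

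**Figure D1:**
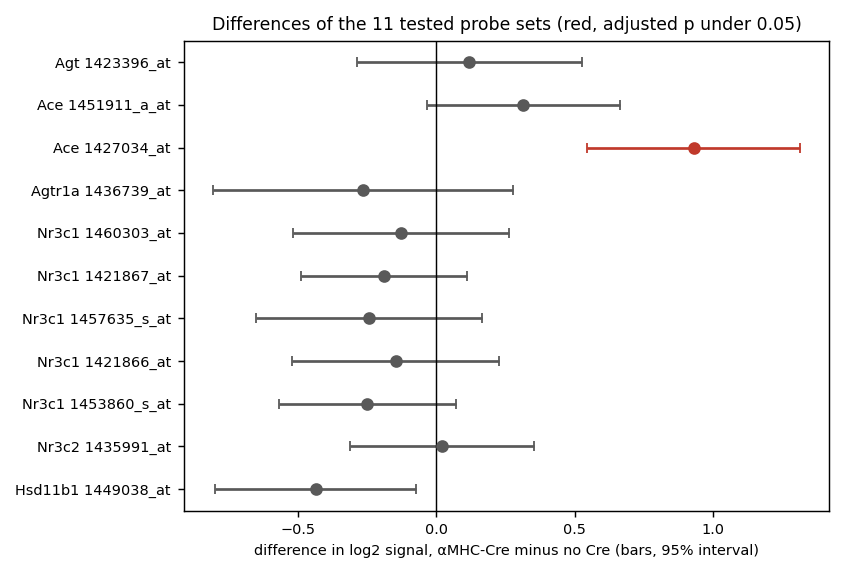
Difference in log2 signal, alpha MHC Cre minus no Cre, for the 11 tested probe sets, with 95% intervals from limma. The interval of Ace 1427034_at runs from 0.54 to 1.31, and that of Hsd11b1, from -0.80 to -0.07, also leaves out 0 but did not pass after adjustment.

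The arrays were alike in level, with medians of 5.72 to 5.81 and maxima of 13.97 to 14.00. The targeted gene gave no single check of the deletion, since its probe sets moved in opposite directions, by -0.88 ± 0.13 (SE) for 1419012_at and by 1.68 ± 0.12 for 1449314_at, with adjusted p (limma) of 0.0052 and 0.00014. Which part of the gene either one reads was not established here. The 7 cardiomyocyte markers read between 12.27 and 13.90 in every heart and none passed (limma, 0 also at an unadjusted p under 0.05). Several of them lie close to the array maxima, so a difference in their level may not be readable here.

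Agt, the precursor of all angiotensin peptides, showed no detectable difference. Its signal was 5.72, 5.70 and 5.38 in alpha MHC Cre hearts, against 5.39, 5.85 and 5.21 in no Cre hearts. The highest and the lowest of the 6 hearts both lacked Cre, so the groups overlapped fully. The difference was 0.12 ± 0.18 (SE, n = 3 each, limma adjusted p 0.81), and its 95% interval, -0.29 to 0.53, leaves out a doubling. Agt lay close to the limit of 5.16 for dim probe sets. The liver is the main source of circulating angiotensinogen. Of 6 annotated hepatocyte markers 2 were tested and 1 rose, against 4.2% of all tested genes. It was Ttr, which encodes the thyroid hormone carrier transthyretin. Its means were 8.49 ± 0.53 (SD, n = 3) in alpha MHC Cre hearts and 5.32 ± 1.34 in no Cre hearts (limma adjusted p 0.013). The summed signal of the 6, Ttr included, was 396 to 692 in alpha MHC Cre hearts and 135 to 291 in no Cre hearts. The other tested marker, Apoa1, differed by 0.04 ± 0.16 (SE, limma adjusted p 0.94). Alb, the albumin gene, and Apoh were among the dim probe sets, with differences of -0.30 ± 0.48 and -0.09 ± 0.30. Ahsg, the fetuin-A gene, was also dim, and it read 5.45, 6.39 and 4.91 in alpha MHC Cre hearts, against 4.31, 4.23 and 3.42 in no Cre hearts, without overlap (adjusted p 0.25). Fgb, the fibrinogen beta chain gene, read below 0 in 1 alpha MHC Cre heart and 2 no Cre hearts.

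Ace, the enzyme that makes angiotensin II and also breaks down bradykinin, is carried by 2 probe sets. The dimmer one, 1427034_at, read 7.32, 7.39 and 7.84 in alpha MHC Cre hearts, against 6.79, 6.39 and 6.59 in no Cre hearts. All hearts with Cre were above all hearts without it. The difference was 0.93 ± 0.17 (SE, n = 3 each, limma adjusted p 0.015), a 1.90-fold rise with a 95% interval of 1.46 to 2.48. The brighter one, 1451911_a_at, read 8.75, 9.12 and 9.30 in alpha MHC Cre hearts, against 8.66, 8.84 and 8.74 in no Cre hearts. Here alpha MHC Cre 1 fell among the hearts without Cre. The difference was 0.31 ± 0.15 (adjusted p 0.34), with an interval of -0.04 to 0.66. The call of 1427034_at was lost without alpha MHC Cre 2 (difference 0.99, adjusted p 0.053) and when dim probe sets stayed in (0.14), a fit in which 0.611% of probe sets passed.

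The rise of the dimmer probe set exceeded that of the brighter one in this comparison by 0.62. Within each heart, the dimmer minus the brighter signal was -1.43, -1.73 and -1.46 in alpha MHC Cre hearts, against -1.87, -2.45 and -2.15 in no Cre hearts. All hearts with Cre were above the others. This contrast was chosen with the 2 results known, so it is a description without a test. The transcripts behind either probe set were not established here. In the mouse, Ace is known to have a start used in somatic cells and a second one inside the gene that is used in male germ cells, and the RefSeq promoter table of build GRCm38.p6 lists both. Their 250 bases upstream are shown because Ace was the member with a call, with matches to a TATA box (TATAAA, either strand) in capitals.
Ace, first start, chr11:105967698-105967947, plus strand: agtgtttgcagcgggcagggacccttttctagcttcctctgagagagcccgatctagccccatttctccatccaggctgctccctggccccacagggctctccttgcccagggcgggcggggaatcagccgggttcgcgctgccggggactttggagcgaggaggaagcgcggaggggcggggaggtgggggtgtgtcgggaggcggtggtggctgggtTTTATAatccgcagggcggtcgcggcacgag
Ace, second start, chr11:105974939-105975188, plus strand: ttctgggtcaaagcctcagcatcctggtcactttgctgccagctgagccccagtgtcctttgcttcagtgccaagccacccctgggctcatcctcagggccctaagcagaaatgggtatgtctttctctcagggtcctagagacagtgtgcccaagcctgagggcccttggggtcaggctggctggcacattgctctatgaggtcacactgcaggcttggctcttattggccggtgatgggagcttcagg
The first window holds TTTATA, the reverse complement of TATAAA, 31 bases before the start and the second holds no match. This motif lies in 12.4% of 32851 windows of the same length. GATA motifs were searched because of the role of Fog2. They were AGATAA, the same ending in G as AGATAG, the same opening with T as TGATAA, and with both changes TGATAG, on either strand. These motifs were found in 0 of 6 windows of the 5 members whose windows were read, against 26.5% of all windows. Windows of Agtr1a and Nr3c1 were not searched. The letters AGAACA, part of a corticosteroid response element, were found in 0 of the 6 as well, against 16.1% of all. A missing match says only that these letters are not in the window.

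Ace is known as an enzyme of the endothelial surface, so endothelial markers are given beside it. Of 7 tested, 1 rose, against 4.2% of all tested genes. It was Vwf, the gene of von Willebrand factor, by 1.12 ± 0.17 (SE, limma adjusted p 0.0066). All 7 read higher with Cre, at a median difference of 0.12, with Tie1 at 0.0008 and Tek at 0.03. Emcn, the gene of the sialomucin endomucin, was higher by 0.46 ± 0.13 without passing (adjusted p 0.077). The summed signal of the 7 was 4877 to 5129 in alpha MHC Cre hearts and 3844 to 4567 in no Cre hearts, and none was at 0. Their part in the result for Ace was not tested. In RNA from whole tissue, more cells of a type and more RNA per cell cannot be told apart.

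**Figure D2:**
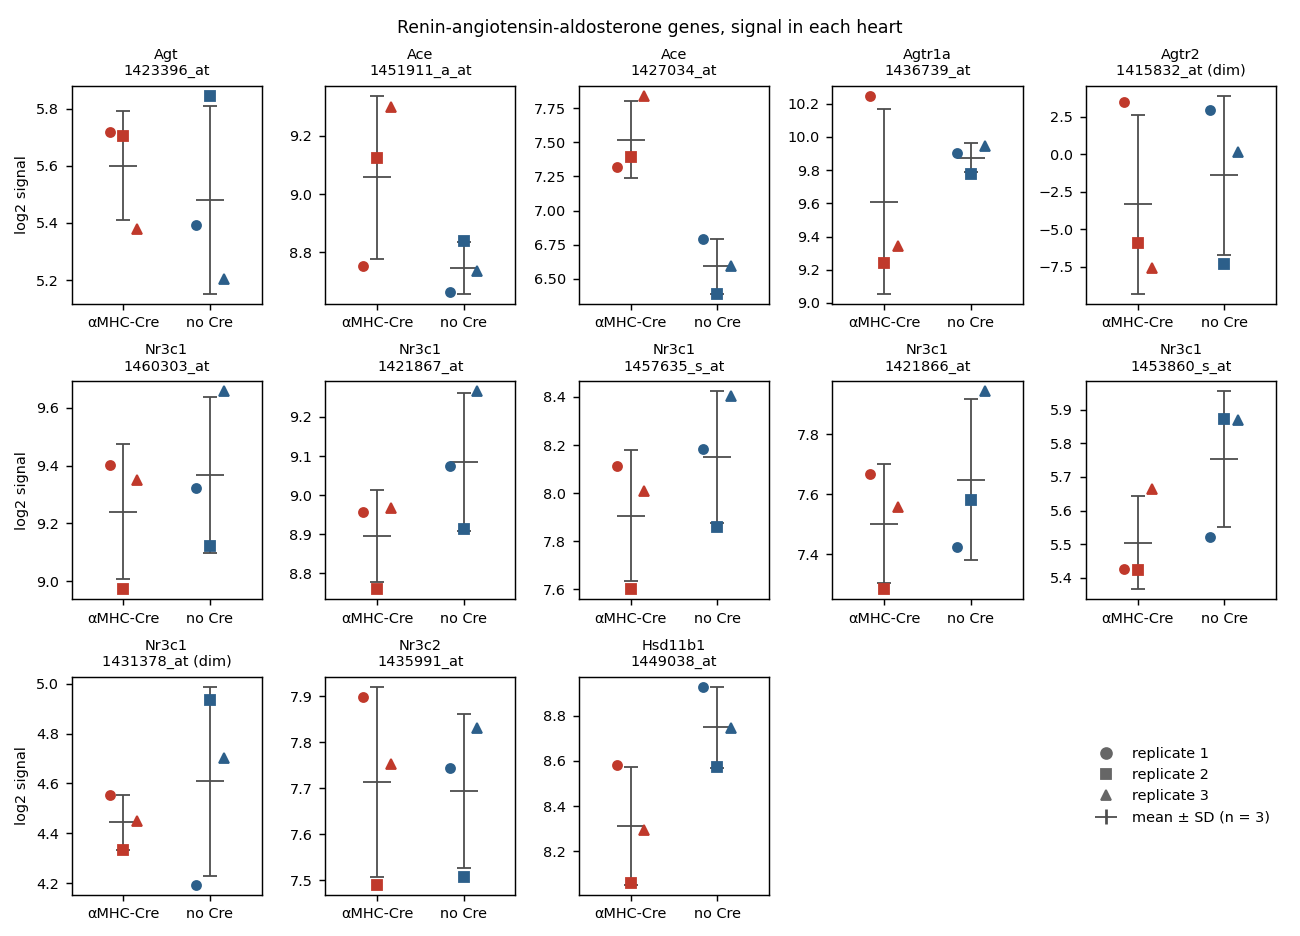
Log2 signal of the 13 member probe sets in each heart, alpha MHC Cre left and no Cre right, with mean and SD (n = 3 each) and a scale of its own in each panel. In the panel of Ace 1427034_at the groups do not overlap, and in that of Agtr1a alpha MHC Cre 1, at 10.25, lies above the hearts without Cre while the other two with Cre lie below them.

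Other enzymes that cut angiotensin peptides went in both directions. Of 17 genes listed 13 were annotated and 11 tested. Enpep rose and Mme fell (4.2% of all tested genes were called higher and 2.04% lower), and the median difference over the 11 was 0.12, against -0.01 over all tested genes. Enpep encodes aminopeptidase A, which removes the first residue of angiotensin II to give angiotensin III. Its signal was 11.08, 10.52 and 11.00 in alpha MHC Cre hearts, against 9.60, 9.03 and 9.09 in no Cre hearts. The lowest heart with Cre was above the highest without it. The difference was 1.63 ± 0.20 (SE, n = 3 each, limma adjusted p 0.0021), and it lay between 1.52 and 1.81 when any 1 heart was left out.

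Mme encodes neprilysin, a membrane peptidase that cuts angiotensin I to shorter peptides and degrades natriuretic peptides. It read 5.61, 4.82 and 5.02 in alpha MHC Cre hearts, against 6.53, 6.43 and 7.02 in no Cre hearts. The groups did not overlap. The difference was -1.51 ± 0.23 (SE, n = 3 each, limma adjusted p 0.0061). The mean with Cre, 5.15, lies just below the limit of 5.16 for dim probe sets. Mme was therefore tested only through its level without Cre, and no fold is given. The size of the difference depends on the low end of the scale, and with 16 added to the unlogged signal it was -1.18 (adjusted p 0.0026). Both Enpep and Mme lost their calls when dim probe sets were kept in the fit (adjusted p 0.068 and 0.11). The RefSeq windows upstream of these genes are shown because their changes were the largest in the list, again with matches in capitals.
Enpep, chr3:129332750-129332999, minus strand: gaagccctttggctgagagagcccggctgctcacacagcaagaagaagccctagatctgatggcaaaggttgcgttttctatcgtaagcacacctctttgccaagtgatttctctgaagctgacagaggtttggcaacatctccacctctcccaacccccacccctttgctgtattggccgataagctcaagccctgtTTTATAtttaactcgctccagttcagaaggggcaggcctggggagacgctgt
Mme, first start, chr3:63294961-63295210, plus strand: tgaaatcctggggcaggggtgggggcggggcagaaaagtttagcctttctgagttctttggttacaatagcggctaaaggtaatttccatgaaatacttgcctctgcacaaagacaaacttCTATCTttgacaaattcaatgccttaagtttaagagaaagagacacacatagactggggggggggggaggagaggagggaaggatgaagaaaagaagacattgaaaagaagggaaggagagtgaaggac
The capitals of Enpep mark the reverse complement of TATAAA, 52 bases before its start. Those of Mme mark a GATA motif read on the opposite strand, 129 bases before the first of 3 listed starts, and that window was picked out of the 3 for this match.

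Of the remaining 9 enzymes, each at its brightest probe set, 8 read higher with Cre and 1 lower, and none passed. Prep, a prolyl oligopeptidase that can shorten angiotensins, came closest. It read 8.57, 8.87 and 8.95 in alpha MHC Cre hearts, against 8.24, 8.21 and 8.34 in no Cre hearts. The groups did not overlap, and the difference was 0.53 ± 0.13 (limma adjusted p 0.055). It was picked with its values known, as was Ctsa, the gene of cathepsin A, whose groups did not overlap either at a difference of 0.24 ± 0.12 (0.35). The other tested probe set of Ctsa differed by -0.02 ± 0.14 (0.96). Further tested probe sets of these 9 genes went in both directions, from -0.60 to 0.42, both of Prcp. The heart no Cre 2 was the lowest of the 6 for 7 of the 11 tested enzymes, against 24.4% of all tested genes. Groups without overlap were found in 23.5% of all tested probe sets. Atp6ap2, known as the prorenin receptor, differed by 0.06 ± 0.15 (0.90). Cma1, the mast cell chymase that can also form angiotensin II, was too dim to test at 4.81 ± 0.20 (SD, n = 3) in alpha MHC Cre hearts and 4.68 ± 0.10 in no Cre hearts. Of the 7 mast cell markers, which include it, 1 was tested and 0 passed with limma (0 at an unadjusted p under 0.05), with a summed signal of 199 to 210 in alpha MHC Cre hearts and 186 to 219 in no Cre hearts. The genes Ren1, Ren2 and Lnpep were not analysed here.

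**Figure D3:**
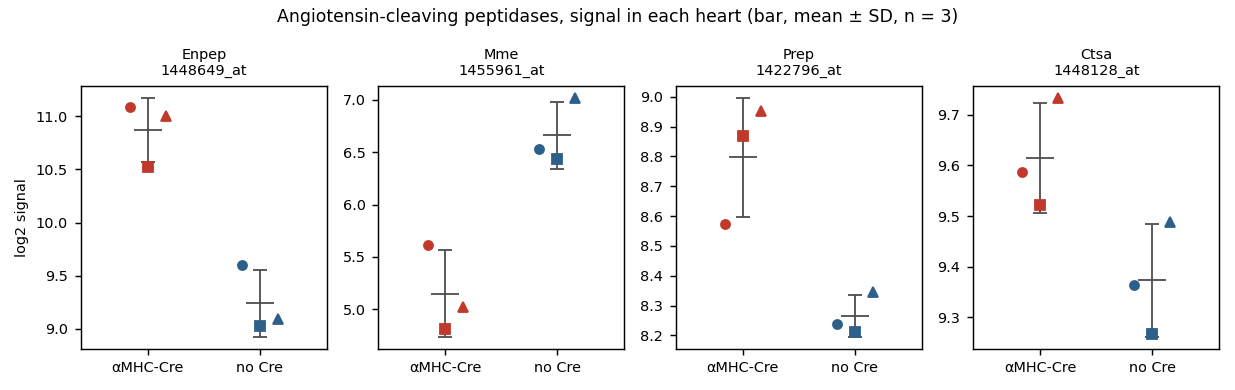
Log2 signal of 4 angiotensin-cleaving peptidases in each heart, alpha MHC Cre left and no Cre right, with mean and SD (n = 3 each) and a scale of its own in each panel. At the brightest probe set of each gene, Enpep, Prep and Ctsa are higher in every heart with Cre, and Mme is lower in every heart with Cre.

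Agtr1a encodes the type 1a angiotensin receptor, the main type 1 receptor of the mouse heart. Its signal was 10.25, 9.24 and 9.34 in alpha MHC Cre hearts, against 9.90, 9.78 and 9.95 in no Cre hearts. The hearts without Cre lay close together (SD 0.09, n = 3), while alpha MHC Cre 1 was the highest of all and the other two with Cre the lowest. The difference was -0.26 ± 0.24 (SE, n = 3 each, limma adjusted p 0.65), with a 95% interval of -0.81 to 0.28. It was -0.58 without alpha MHC Cre 1 (adjusted p 0.061) and -0.08 without alpha MHC Cre 2 (0.95), so 1 heart decides its size. The type 1 receptor is known from pericytes, smooth muscle and fibroblasts of the heart. Of 6 tested smooth muscle and pericyte markers 0 passed with limma, against 6.24% of all tested genes. At an unadjusted p under 0.05 was 1, against 17.7% of all tested probe sets. The summed signal over 7 markers was 9077 to 10343 in alpha MHC Cre hearts and 7706 to 9899 in no Cre hearts. The pericyte gene Rgs5 differed by 0.02 ± 0.13, and Acta2, smooth muscle α-actin, by 0.80 ± 0.30 (adjusted p 0.20).

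Agtr2 encodes the type 2 receptor, which is abundant in fetal tissue and counteracts the type 1 receptor. Its probe set read 3.47, -5.91 and -7.61 in alpha MHC Cre hearts, against 2.97, -7.33 and 0.16 in no Cre hearts. Such values lie at the bottom of the PLIER scale, where small changes in brightness become large on the log2 axis. It was left out as dim, and when every probe set was fitted the difference was -1.95 ± 3.96 (adjusted p 0.89) and a 95% interval of -11.88 to 7.99. With 16 added to the unlogged signal the difference was 0.03. A change of Agtr2 in either direction was not detectable at this signal. Other angiotensin receptor genes, Agtr1b (3.27 ± 0.44 in alpha MHC Cre and 2.73 ± 0.51 in no Cre hearts, SD, n = 3) and Mas1 (2.28 ± 0.53 in alpha MHC Cre and 2.55 ± 1.75 in no Cre hearts), were too dim to test.

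Proteins that work with the receptors showed 0 of 7 tested genes past the threshold with limma, against 6.24% of all tested genes. At an unadjusted p under 0.05 were 2, against 17.7% of all tested probe sets, and the median difference was 0.03. Agtrap, whose product promotes internalisation of the type 1 receptor, was at 7.59, 7.73 and 7.69 in alpha MHC Cre hearts, against 7.32, 7.21 and 7.30 in no Cre hearts. There was no overlap, a trait of 23.5% of all tested probe sets. The difference of 0.39 ± 0.11 missed the threshold (adjusted p 0.087), as did that of its other probe set, 0.53 ± 0.15 (0.089). In the mean of both probe sets it passed (0.46, adjusted p 0.044). Arrb1, the β-arrestin gene, differed by 0.44 ± 0.19 (0.27).

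Nr3c1, the glucocorticoid receptor gene, has 6 probe sets, of which 5 were tested and 1 was dim. All 6 read lower on average with Cre, by 0.13 to 0.25 on the log2 scale, and none passed (limma adjusted p 0.42 to 0.81). These probe sets measure the same gene on the same arrays, so they are not independent. The brightest, 1460303_at, read 9.40, 8.97 and 9.35 in alpha MHC Cre hearts, against 9.32, 9.12 and 9.66 in no Cre hearts. The groups overlapped in all 6. Averaged over the 5 tested probe sets, the signal was 7.91, 7.61 and 7.91 in alpha MHC Cre hearts, against 7.91, 7.87 and 8.23 in no Cre hearts, a difference of -0.19 (two-sided exact permutation p = 0.60, where 0.10 is the smallest possible). The lowest bound of the 5 intervals was -0.65, so a halving lay outside each of them.

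Nr3c2, the mineralocorticoid receptor gene, was the member closest to 0. It read 7.90, 7.49 and 7.75 in alpha MHC Cre hearts, against 7.74, 7.51 and 7.83 in no Cre hearts. Both groups covered nearly the same range. The difference was 0.02 ± 0.15 (SE, n = 3 each, limma adjusted p 0.97), with a 95% interval of -0.31 to 0.35 that leaves out changes beyond 1.28-fold in either direction. The heart alpha MHC Cre 2 was the lowest of the 6 for Nr3c2. Over the tested member genes it was the lowest for 4 of 6, against 24.9% of all tested genes. Counted by probe set it was the lowest for 8 of the 11 tested, 5 of them of Nr3c1.

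Hsd11b1 was the member nearest to a downward call. It read 8.58, 8.06 and 8.30 in alpha MHC Cre hearts, against 8.93, 8.57 and 8.75 in no Cre hearts. Only alpha MHC Cre 1 reached into the range of the hearts without Cre, above the lowest of them by a small margin. The difference was -0.44 ± 0.16 (SE, n = 3 each), with a 95% interval of -0.80 to -0.07. Its limma p was 0.024 before and 0.19 after adjustment, and 17.7% of all tested probe sets had an unadjusted p under 0.05. It stayed negative whichever heart was left out, at -0.57 to -0.31. Hsd11b1 is known to be active in fibroblasts and fat. Of 8 fibroblast markers 5 rose, against 4.2% of all tested genes, led by Col1a1, a collagen gene, at 1.41 ± 0.21 and Postn, and a summed signal of 16158 to 17963 in alpha MHC Cre hearts and 10579 to 12749 in no Cre hearts. Of 5 annotated adipocyte markers 2 were tested and 0 passed with limma (0 at an unadjusted p under 0.05), and their summed signal was 289 to 318 in alpha MHC Cre hearts and 269 to 330 in no Cre hearts. The part of these cells in the result was not tested.

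Enzymes that make or convert corticosteroids did not differ past the threshold. Of 8 annotated genes 4 were too dim to test. Of the 4 tested, 0 passed with limma, against 6.24% of all tested genes. At an unadjusted p under 0.05 were 0, against 17.7% of all tested probe sets, and the median difference was -0.11. H6pd, which supplies the cofactor that Hsd11b1 needs, read 7.40, 7.07 and 7.58 in alpha MHC Cre hearts, against 7.56, 7.48 and 7.70 in no Cre hearts. The groups overlapped, and the difference was -0.23 ± 0.15 (adjusted p 0.50). Cyp11b2, the aldosterone synthase gene of the adrenal gland, was too dim to test, at 4.56 ± 0.30 (SD, n = 3) in alpha MHC Cre hearts and 4.82 ± 0.21 in no Cre hearts. Star, which delivers cholesterol for steroid synthesis, differed by -0.18 ± 0.18 (SE, adjusted p 0.70).

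The chaperones that hold steroid receptors ready for hormone showed 0 of 6 tested genes past the threshold with limma, against 6.24% of all tested genes. At an unadjusted p under 0.05 were 3, against 17.7% of all tested probe sets, and the median difference was 0.27. Bag1, a co-chaperone of Hsp70, was higher in 3 of 3 hearts with Cre than in any without, by 0.41 ± 0.12 (adjusted p 0.10), and so was Hsp90aa1, a form of Hsp90, by 0.41 ± 0.13 (0.12). Fkbp4, also at an unadjusted p under 0.05, was lower in every heart with Cre, by -0.36 ± 0.14 (0.22). Its other tested probe set went the other way, by 0.24 ± 0.19 (0.60). Groups without overlap were found in 23.5% of all tested probe sets. The heart no Cre 2 was the lowest for 4 of these 6 genes, against 24.4% of all tested genes.

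Genes that corticosteroids are known to induce did not differ past the threshold in any of 15 tested cases (limma), against 6.24% of all tested genes. At an unadjusted p under 0.05 were 2, against 17.7% of all tested probe sets, and the median difference between the groups was 0.05. Klf15, a glucocorticoid-induced transcription factor of the heart, had the lowest p. It read 9.44, 9.13 and 8.64 in alpha MHC Cre hearts, against 9.63, 9.85 and 9.69 in no Cre hearts. All hearts with Cre were the lower ones, and the difference was -0.65 ± 0.19 (adjusted p 0.097). Angptl4, an inhibitor of lipoprotein lipase, differed by -0.68 ± 0.25 (0.20).

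The same 15 genes varied from heart to heart in a common pattern. The heart alpha MHC Cre 3 was the lowest of the 6 for 14 of them, while it was the lowest for 14.1% of all tested genes. Its median deviation from the mean of the 6 hearts was -0.61, against 0.48 in alpha MHC Cre 1 and 0.20 in alpha MHC Cre 2. The no Cre hearts lay at -0.12, -0.28 and 0.24. Ddit4, a stress-induced inhibitor of mTOR signalling, read 11.12, 11.00 and 8.33 in alpha MHC Cre hearts, against 9.49, 9.63 and 10.98 in no Cre hearts. Tsc22d3, a direct target of the glucocorticoid receptor, read 10.75, 10.74 and 9.54 in alpha MHC Cre hearts, against 10.06, 9.74 and 10.49 in no Cre hearts. Sgk1, a kinase induced by both hormones, read 10.68, 10.20 and 9.38 in alpha MHC Cre hearts, against 9.69, 9.61 and 10.33 in no Cre hearts. In each of these 3 genes, chosen after their values were seen, the lowest and the highest heart both carried Cre. None of the 6 member genes was lowest in alpha MHC Cre 3. Without this heart the median difference of the 15 genes was 0.29, and Fam107a, a glucocorticoid-induced gene of the actin cytoskeleton, passed at 1.33 (adjusted p 0.017), against 0.54 ± 0.56 (0.70) with it. Fam107a differed by 0.08 without alpha MHC Cre 1 and by 0.21 without alpha MHC Cre 2. The heart alpha MHC Cre 3 was picked as the lowest for these genes, so its removal raises their differences and the pass is no support. These genes share arrays and were not tested as a group, and the cause was not tested.

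**Figure D4:**
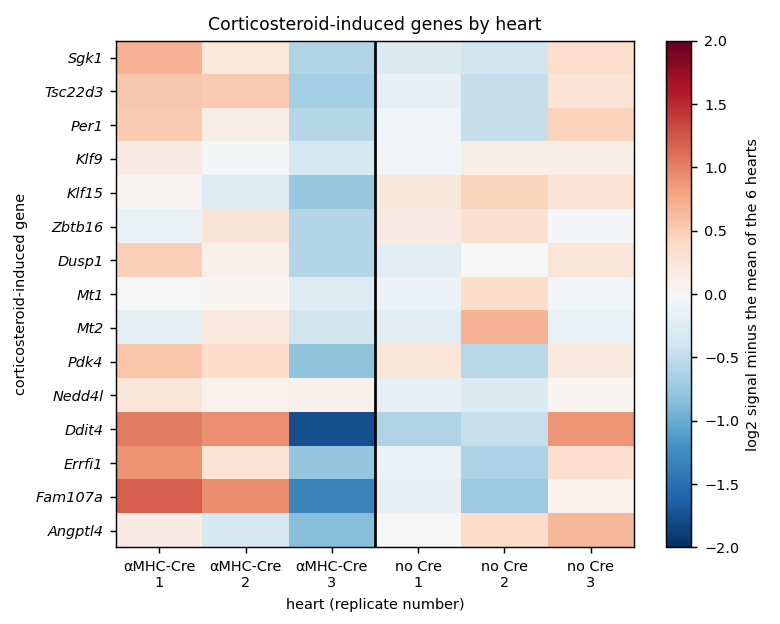
Log2 signal of 15 corticosteroid-induced genes in each heart, as the deviation from the mean of the 6 hearts (colour scale, cut at 2 in either direction), with alpha MHC Cre hearts left of the line and no Cre hearts right of it. The column of alpha MHC Cre 3 is the lowest in 14 of 15 rows.

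Genes that angiotensin II is known to induce in the heart showed 3 of 8 tested higher and 0 lower past the threshold, against 4.2% and 2.04% of all tested genes. Their median difference was 0.21, against -0.01 over all tested genes. Postn, the gene of the matrix protein periostin, read 9.46, 9.87 and 10.24 in alpha MHC Cre hearts, against 8.38, 8.43 and 8.70 in no Cre hearts. The groups did not overlap, and the difference was 1.36 ± 0.19 (SE, n = 3 each, limma adjusted p 0.0049). Ccn2, connective tissue growth factor, read 11.23, 11.50 and 10.90 in alpha MHC Cre hearts, against 10.14, 10.32 and 10.20 in no Cre hearts. It was higher in every heart with Cre, by 0.99 ± 0.16 (adjusted p 0.0087). Rcan1, a calcineurin inhibitor, also passed, by 0.52 ± 0.12 (0.039), a call lost whichever heart was left out (0.061 to 0.14). Tgfb1 differed by 0.10 ± 0.13 (0.77). Many other signals induce these genes too, and Postn is also in the fibroblast list above, whose part in these rises was not tested.

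**Figure D5:**
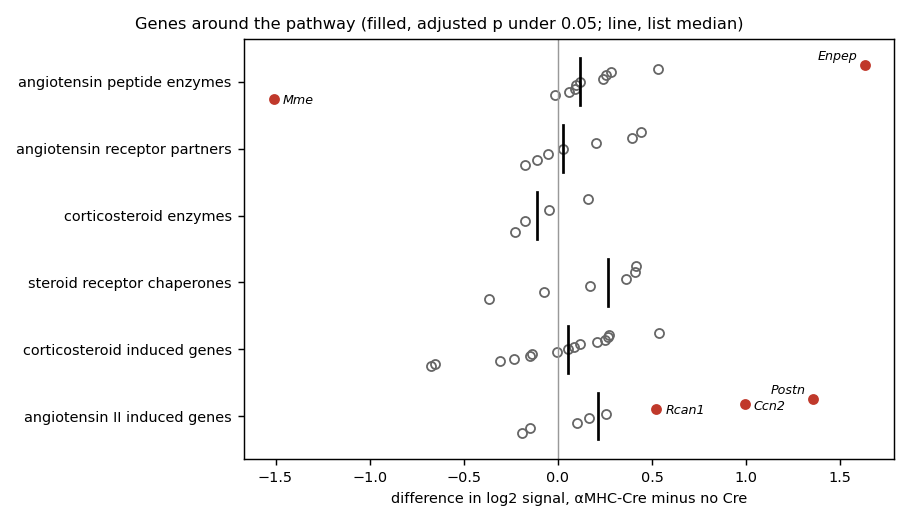
Difference in log2 signal, alpha MHC Cre minus no Cre, of each tested gene in 6 lists around the pathway, with the list median as a line. Filled points mark adjusted p under 0.05, which are Enpep, Postn, Ccn2 and Rcan1 on the higher side and Mme on the lower side.

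Other lists described the tissue itself. Of 7 macrophage markers 0 passed with limma, against 6.24% of all tested genes. At an unadjusted p under 0.05 was 1, against 17.7% of all tested probe sets, with Cd14 at -0.33 ± 0.14 and Cd68 at 0.22 ± 0.11. Their summed signal was 3629 to 4075 in alpha MHC Cre hearts and 3315 to 4204 in no Cre hearts. Of 5 tested genes typical of atria 2 rose, against 4.2% of all tested genes, 3 did not pass, and the median difference was 0.06. Myl7, an atrial myosin light chain gene, read 10.72, 11.42 and 10.92 in alpha MHC Cre hearts, against 4.34, 3.39 and 3.42 in no Cre hearts (limma adjusted p 6.4e-06). Its values without Cre lie below the limit of 5.16 for dim probe sets, so it was tested only through its level with Cre. Its p-value and its place in the count of atrial genes are therefore no support, and no fold is given. Nppa, the gene of atrial natriuretic peptide, was higher by 2.03 ± 0.17 (adjusted p 0.00032). Its values with Cre, 13.72, 13.68 and 13.69, lie close to the array maxima, so the size of this difference may not be readable here. Tbx5, a transcription factor gene, differed by -0.49 ± 0.12 without overlap (adjusted p 0.058), Myl4 by -0.02 ± 0.13 (0.96) and Nr2f2 by 0.06 ± 0.13 (0.88). Sln and Bmp10 were too dim to test.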

How the data were processed

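RNA from 6 mouse hearts was measured on 1 array each. The deposited values are log2 signals that the authors computed with PLIER, per the submitters' processing notes, and no version is given in the sources used here. They were used without further normalization. Probe sets were named through the platform annotation. Of 45101, 34945 have 1 symbol, 932 several and 9160 none, and those with several were not named. The 64 controls and the dimmest 40% (mean log2 under 5.16) were left out.

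limma 3.58.1 (lmFit and eBayes, R 4.3.3) compared alpha MHC Cre with no Cre hearts, 3 each, with Benjamini-Hochberg adjustment over all tested probe sets. A dim probe set is given from a fit of all 45037. A gene is read through its brightest probe set. The number of arrays limits the precision. The test was tried on simulated data. The labels do not say how the replicates relate, so p-values measure only the spread between these hearts.

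Members and lists were chosen with earlier results of these data known. Named were all members, per pathway list up to 4 genes past the threshold or else up to 2 with the lowest p, and per marker list up to 2. Other genes named were chosen after their values were seen. Sequences come from RefSeq (GRCm38.p6), and windows of 5 of 7 members were read. The search did not cover every chromosome, and Agtr1a and Nr3c1 are without a window here. Hearts with the same replicate number did not deviate together.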

Additional observations from a re-analysis of the deposited data

How the results depend on the processing

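With all probe sets kept in the fit, 275 passed in place of 1412, and the counts were 0 for the member probe sets, 0 for the peptide enzymes and 0 for the angiotensin II-induced genes. Ace 1427034_at then kept its difference of 0.93 without passing (adjusted p 0.14). This fit adjusts over more probe sets, and the dim ones change the pooled spread. With the replicate number as a block 909 probe sets passed, and Ace 1427034_at still did (adjusted p 0.044). The numbers do not pair the hearts (correlations of deviations -0.06, 0.21 and -0.19, with 2 of 6 hearts closest to their own number). A threshold of 0.01 gave 529 probe sets and 0 members, and one of 0.10 gave 2220 probe sets, 1 receptor partner and 1 corticosteroid-induced gene. The mean over the probe sets of a gene gave 1 receptor partner, and a trended robust fit gave 2 chaperones. Leaving out 1 heart gave 584 to 1112 probe sets, 0 to 1 members, 2 to 3 peptide enzymes, 0 to 1 chaperones, 0 to 1 corticosteroid-induced genes and 2 angiotensin II-induced genes, and Ace 1427034_at differed by 0.77 to 1.03. Signs turned only for differences that had not passed. Without 1 heart the range was -0.019 to 0.30 for Agt, -5.36 to 0.24 for Agtr2, -0.25 to 0.018 for Nr3c1 1460303_at, -0.26 to 0.0010 for Nr3c1 1421866_at and -0.073 to 0.13 for Nr3c2. Agtr2 also turned with 16 added (0.030), and Nr3c2 with array weights (-0.034). Among the tested members and the genes named from the pathway lists, a filter of 60% left no value for Agt, Nr3c1 1453860_s_at, Mme, Arrb1, Star and Angptl4. The cause of these changes was not tested. The median of the corticosteroid-induced genes without alpha MHC Cre 3 was added after the data had been seen.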

Other observations

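Of the list genes too dim to test, 5 had groups that did not overlap: Ahsg, given above, and the 4 below. They were picked for this trait, which 23.5% of the probe sets bright enough to test also had. Hsd3b1, an enzyme of steroid synthesis, read 5.09, 5.74 and 5.34 in alpha MHC Cre hearts, against 3.54, 3.51 and -6.88 in no Cre hearts (5.33 ± 2.98, SE, limma adjusted p 0.56 with dim probe sets kept). The stem cell factor receptor gene Kit read 5.52, 5.47 and 5.31 in alpha MHC Cre hearts, against 4.60, 4.93 and 4.87 in no Cre hearts (0.64 ± 0.13, adjusted p 0.14). The mast cell protease gene Cpa3 read 4.13, 3.75 and 3.76 in alpha MHC Cre hearts, against 4.38, 4.59 and 4.41 in no Cre hearts (-0.58 ± 0.15, adjusted p 0.21). Cnn1, the smooth muscle calponin gene, read 3.94, 4.25 and 4.02 in alpha MHC Cre hearts, against 3.82, 3.62 and 3.03 in no Cre hearts (0.58 ± 0.23, adjusted p 0.40). None of the 5 passed, and their values lie at the low end of the scale.

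The FK506-binding protein gene Fkbp5, a glucocorticoid-induced partner of steroid receptors, read 8.47, 8.81 and 6.89 in alpha MHC Cre hearts, against 7.58, 7.76 and 7.74 in no Cre hearts. The difference was 0.36 ± 0.41 (limma adjusted p 0.73) and 0.94 without alpha MHC Cre 3 (adjusted p 0.015). That heart was picked as the lowest, so its removal raises the difference and this p is no support. The difference was 0.16 without alpha MHC Cre 1 and -0.016 without alpha MHC Cre 2. Its relative Fkbp4, at the brightest probe set, was lower in every heart with Cre than in any without, by -0.36 ± 0.14 (adjusted p 0.22). Its other tested probe set went the other way, by 0.24 ± 0.19 (0.60), and the mean of both differed by -0.06 (0.86).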
